A study of Nicotiana tabacum with 12 samples.

Results

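Leaves of a tobacco knockout line were compared with leaves of wild type K326, a flue-cured cultivar, in 6 of the 12 RNA sequencing libraries of a study on chlorophyll content. The 3 libraries with genotype Q18 (knockout) and the 3 with genotype K326 (wild type) were taken by their labels and by the matching columns of the deposited table. The other 6 libraries, 3 of wild type KY and 3 of the overexpression line YOE, entered the fit only to estimate the spread between replicates and are quoted where a level needs a reference. All libraries came from leaf, and per the study's design text the plants were seedlings and the mutants bore the names K326-gk-8 for one line and KY-OE-31 for the other. Whether Q18 is K326-gk-8, how many edited lines it stands for and what background it was made in are not given in the sources used here, so an effect of the knockout and a difference in background cannot be told apart. The labels do not say whether the 3 libraries of a group stem from different plants. A p-value here therefore measures the spread between libraries alone, and that spread may be technical.

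The study addressed how NtCISZOG, named as an O-glucosyltransferase of the cytokinin cis-zeatin, acts on chlorophyll content and on NtChlH. Cytokinins are plant hormones that promote cell division and the greening of leaves. Attaching glucose to their side chain gives a storage form that does not act as a hormone, and dehydrogenases remove them for good. Chlorophyll is made in the plastid along the tetrapyrrole pathway, which it shares with heme up to protoporphyrin IX. There magnesium chelatase, built of the subunits H, D and I, inserts magnesium, which commits the molecule to chlorophyll, and ChlH is the subunit that binds the porphyrin. Leaves store part of the carbon they fix as starch during the day and break it down at night. Tobacco (Nicotiana tabacum) is an allotetraploid, so most genes are present as near-identical copies from both ancestral genomes, between which reads can be split.

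The values were taken as TPM, a share of transcripts corrected for gene length, from the tools named by the submitters. The table's header names no unit, and FPKM, which is also corrected for length, would fit the values too. Each library was scaled by a median of gene-wise ratios, because the deposited columns did not sum to one total, and the results are called scaled TPM. The deposited sums were 507091 to 635180 in K326 and 608606 to 676862 in the knockout, and the files give no read counts, so the depth behind each value is unknown. In what follows the 3 values of a group stand in the order of replicates 1, 2 and 3. Across tested genes, the correlation of log2 values was 0.967 to 0.974 between K326 libraries, 0.965 to 0.975 between knockout libraries and 0.950 to 0.974 between a K326 and a knockout library, so the ranges within and between groups overlapped. Of the 86 genes at 2 or more in all K326 libraries and at 0.2 or less in all KY libraries, 84 stood at 1 or more in all 3 knockout libraries. All 16 genes in the opposite state, on in KY and off in K326, were under 1 in all 3 knockout libraries. The overexpression line was much alike, with 83 of the 86 at 1 or more and 15 of the 16 under 1 in all 3 libraries. This state was thus not particular to the knockout. With the same thresholds, 0 genes were on in K326 and off in the knockout, and 0 were the reverse. The gene of NtCISZOG could not be identified in the table by its descriptions, so its level in the knockout is not given and the knockout label was not checked against it.

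Few single genes separated the knockout from K326 beyond the spread between replicates. Of 31064 genes tested with limma and Benjamini-Hochberg adjustment, 4 fell in the knockout (0.0129%) and 0 rose at an adjusted p under 0.05, while 2104 had an unadjusted p under 0.05. All 4 calls stood at an adjusted p of 0.04999, just inside the threshold. With the library factors first divided so that they centre on 1, which changes only where the filter and the pseudocount fall, 30633 genes were tested and 0 were called (smallest adjusted p 0.0539, limma). None of the 4 genes has a described function in the table.

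The gene with the smallest p, Nitab4.5_0004579g0030, encodes a protein with the uncharacterised domain DUF1685. It stood at 74.7, 79.3 and 92.5 scaled TPM in K326 and at 40.9, 41.0 and 36.6 in the knockout, so every knockout library lay below every K326 library. Its mean fell from 82.2 ± 9.24 to 39.5 ± 2.54 (SD, n = 3 each), a log2 change of -1.03 (SE 0.12, 95% interval -1.30 to -0.77). Levels in KY were higher than in both groups, at 162, 142 and 151. Another DUF1685 gene, Nitab4.5_0002368g0040, named here after its values were seen, stood at 36.2, 39.1 and 55.5 against 23.1, 27.1 and 19.7. Its groups did not overlap either, but it did not pass the test (log2 change -0.86, limma adjusted p = 0.218).

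The other 3 called genes are described only as Unknown. Nitab4.5_0002845g0110 stood at 10.6, 9.76 and 9.63 in K326 and at 2.62, 4.2 and 4.21 in the knockout, a log2 change of -1.26 (SE 0.16). Its KY and overexpression libraries lay between 9.67 and 13.2, near K326, so the knockout alone was low for this gene among the 12 libraries. Nitab4.5_0003884g0100 stood at 4.02, 2.55 and 1.91 against 0.329, 0.464 and 0.356, a log2 change of -1.43 (SE 0.18). In KY it was nearly silent, at 0.177, 0.0588 and 0.0544, below the knockout. Nitab4.5_0000639g0100 stood at 18.1, 18.6 and 23.7 against 8.40, 8.89 and 5.81, a log2 change of -1.29 (SE 0.16), and KY, at 7.10 to 9.16, was close to the knockout.

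**Figure D1:**
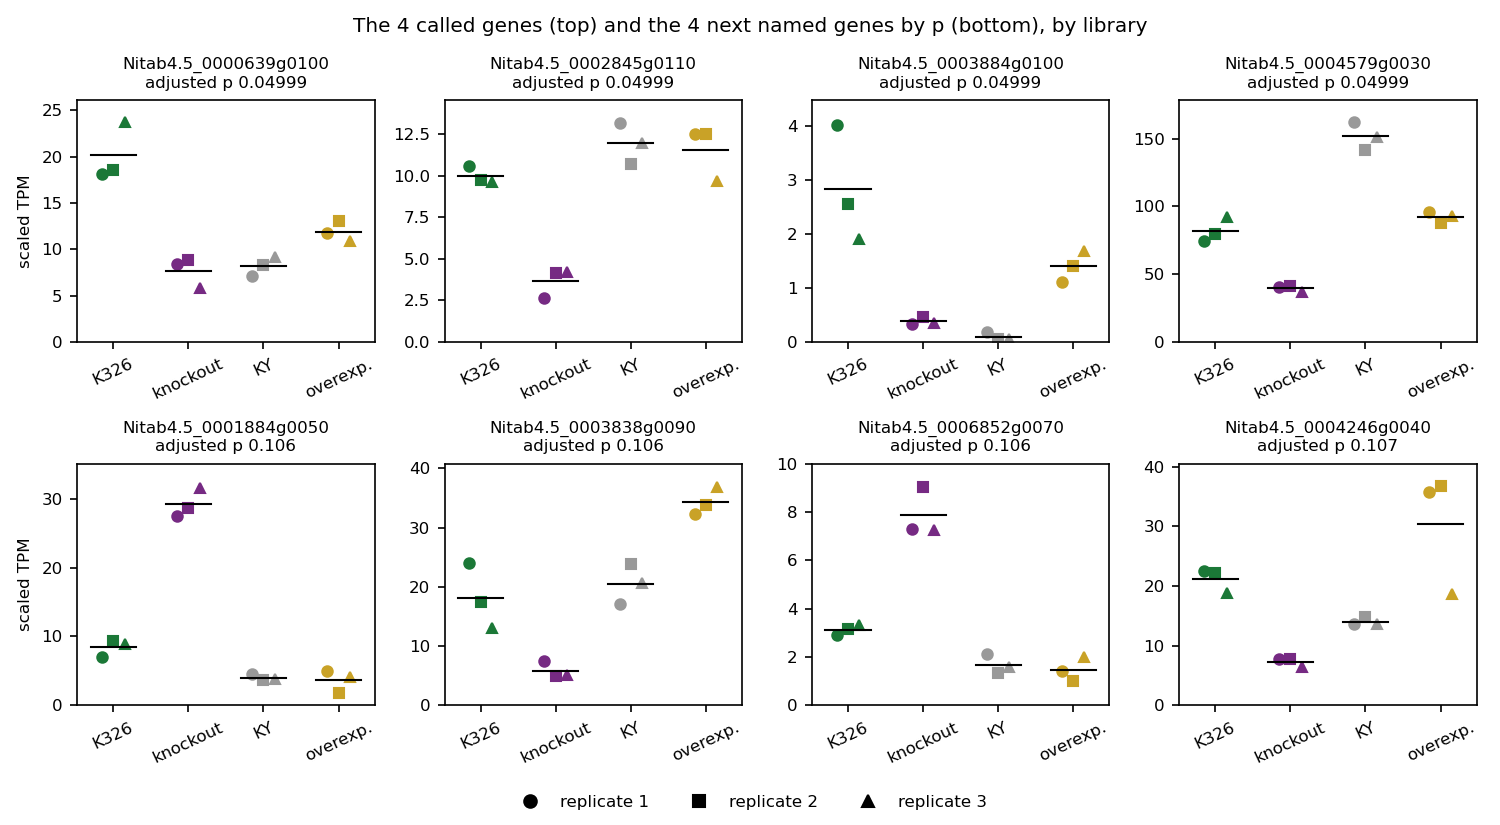
Scaled TPM (y axis, linear from 0, one scale per gene) in each library of the 4 groups, for the 4 called genes in the top row and the 4 named genes with the next smallest adjusted p in the bottom row. Each marker is 1 library, its shape gives the replicate number, lines are group means, and the K326 and knockout markers of these genes do not overlap.

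Because single genes rarely passed, groups of genes are described by how many members had no overlap between the 3 knockout and the 3 K326 libraries. Over all tested genes 2457 (7.91%) were higher in every knockout library than in every K326 library and 1893 (6.09%) were lower in every one. On the values as deposited, where the median gene stood 0.24 log2 higher in the knockout, the split was 5233 higher (16.7%) and 345 lower (1.1%). Because that scale moves all genes, counts as deposited are read against these shares, and medians as deposited are given as differences from the median of all genes. The median log2 change over all tested genes after scaling was 0.018. The gene lists are matched to domain names in the table and are described by these counts and medians, with no test of their own. Sums of a list or family are over all its matched genes, whether tested or not.

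Genes of magnesium chelatase did not separate the groups. The ChlH gene Nitab4.5_0005195g0040 stood at 53.6, 39.5 and 64.7 in K326 and at 63.6, 26.4 and 41.7 in the knockout (log2 change -0.31, limma adjusted p = 0.884). Its KY libraries held 0.0817, 0.306 and 0, so this copy was close to silent in KY and on in K326 and in the knockout. The second ChlH gene, Nitab4.5_0010636g0020, stood at 72.4, 50.2 and 82.7 against 92.0, 32.4 and 57.3 (log2 change -0.27, adjusted p = 0.914 by limma). In both copies the first knockout library lay near or above the top of the K326 range and the second below its bottom.

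Summed over the 2 copies, ChlH held 126, 89.7 and 147 scaled TPM in K326 (121 ± 29.2, SD, n = 3) and 156, 58.8 and 99.0 in the knockout (104 ± 48.6, SD, n = 3). The difference of -16.6 was smaller than the spread within either group (two-sided exact permutation p = 0.700; 3 against 3 cannot give a p below 0.1). It was 4.85 on the values as deposited, a scale on which the median gene also stood higher in the knockout, and 6.28 without the second knockout library. The other subunits also overlapped: the I subunit gene Nitab4.5_0006237g0030, whose product is an ATPase of the motor ring, held 42.9, 30.6 and 44.3 against 45.6, 25.3 and 34.8 (log2 change -0.17). Of the genes with the von Willebrand domain of the D subunit, Nitab4.5_0001663g0090 held 13.5, 10.8 and 14.9 against 17.3, 11.8 and 11.5 (0.036). The other one, Nitab4.5_0000733g0210, held 8.61, 6.73 and 9.32 against 10.1, 6.73 and 7.01 (-0.051). Of 5 chelatase genes tested, 0 passed and 0 were free of overlap.

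The rest of the tetrapyrrole pathway and the proteins that hold chlorophyll followed the same library pattern. The 52 matched genes of chlorophyll and tetrapyrrole synthesis, 46 of them tested, summed to 1816, 1439 and 2311 in K326 and to 2056, 1072 and 1619 in the knockout. The light-harvesting genes encode the antenna proteins that bind chlorophyll a and b. Their 93 matched members, 88 of them tested, summed to 28490, 23426 and 40044 against 35227, 18808 and 24984. In both sums replicate 2 was the lowest library of its group, and the groups overlapped. Of the synthesis genes 1 was higher without overlap (2.17%) and 0 lower, and of the light-harvesting genes 3 were higher (3.41%) and 2 lower (2.27%), shares below the 7.91% and 6.09% over all genes. Their medians were -0.12 and -0.25, with 37 of 46 and 80 of 88 genes below 0, and as deposited they stood -0.14 and -0.21 from the median of all genes. Without the first knockout library 35 light-harvesting genes were lower (39.8%, against 10.9% of all genes in those libraries), and without any other library 2 to 12 were.

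**Figure D2:**
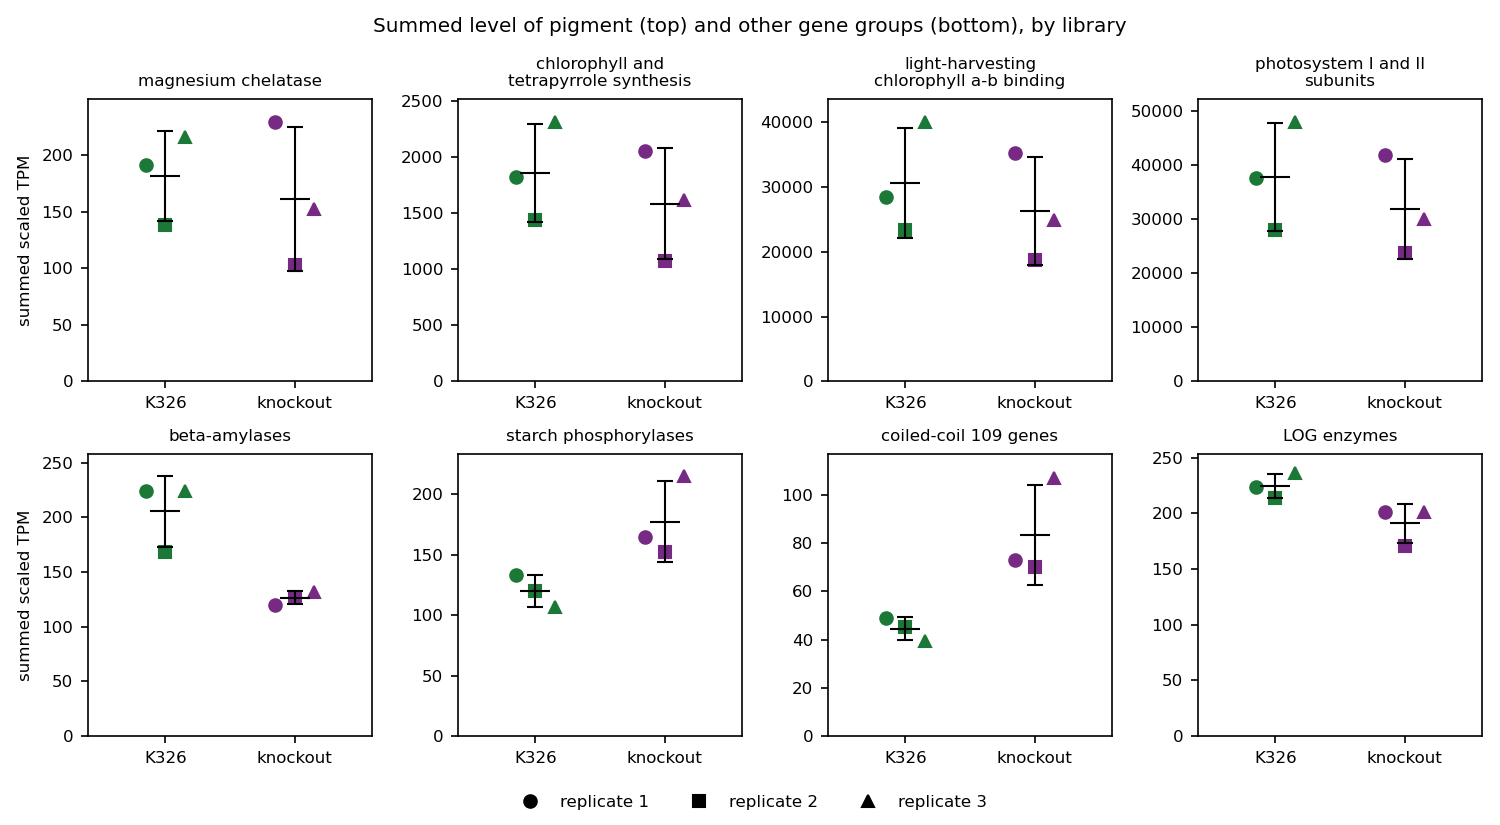
Summed scaled TPM (y axis, linear from 0, one scale per panel) of pigment gene groups in the top row and of other gene groups in the bottom row, for each K326 and knockout library, with the marker shape giving the replicate number and lines and bars the mean ± SD (n = 3). In the magnesium chelatase and light-harvesting panels the knockout libraries span a range that overlaps that of K326.

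Single genes of these groups show the same spread. Uroporphyrinogen III synthase (Nitab4.5_0000443g0190), which closes the tetrapyrrole ring, held 6.03, 4.23 and 7.58 in K326 and 4.80, 2.94 and 3.01 in the knockout, with overlap (log2 change -0.60, limma adjusted p = 0.636). A light-harvesting gene with little scatter, Nitab4.5_0002004g0010, held 19.3, 15.4 and 17.3 against 14.1, 10.6 and 13.0, with no overlap (-0.44, limma adjusted p = 0.500). The gene of the photosystem II protein PsbO (Nitab4.5_0000382g0110), which stabilises the manganese cluster that splits water, held 8.95, 5.78 and 16.7 against 6.23, 2.72 and 2.73 and overlapped (-1.19). The photosystem core and electron transport list, 185 genes, had 4 higher (2.16%) and 7 lower (3.78%), against 7.91% and 6.09% of all genes. Its median was -0.23 after scaling and -0.23 from the median of all genes as deposited. Its count of lower genes was 57 without the second K326 library (30.8%, against 12.4% of all genes) and 42 without the first knockout library (22.7%, against 10.9%).

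Breakdown of chlorophyll gave no more. Of 23 genes, 1 was lower without overlap (4.35%): a chlorophyllase gene, Nitab4.5_0000871g0040, whose enzyme cleaves the phytol tail, held 3.80, 1.64 and 2.98 in K326 and 1.38, 1.16 and 1.51 in the knockout (log2 change -0.66, limma adjusted p = 0.759). A Staygreen gene, Nitab4.5_0000847g0060, named after its values were seen, overlapped at 61.9, 46.2 and 67.4 against 63.4, 28.9 and 42.5. Of 36 carotenoid and plastid isoprenoid genes 0 were higher and 2 lower (5.56%), against 7.91% and 6.09% of all genes. Phytoene synthase (Nitab4.5_0006449g0010), the entry enzyme of carotenoid synthesis, held 29.0, 26.4 and 33.0 against 23.9, 20.9 and 18.5 (-0.46, limma adjusted p = 0.416) and did not overlap. The Calvin cycle and Rubisco list, 117 genes, had 4 higher (3.42%) and 7 lower (5.98%). Its lowest member, the fructose-1,6-bisphosphatase gene Nitab4.5_0000008g0390, held 92.3, 66.6 and 103 against 63.3, 14.1 and 22.0 (-1.63, limma adjusted p = 0.417), with no overlap but a wide spread in the knockout.

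Genes of starch metabolism had many members free of overlap, none of which passed the test. Of 57 tested, 12 were higher in the knockout (21.1%) and 7 lower (12.3%), against 7.91% and 6.09% over all genes, and as deposited the split was 19 (33.3%) and 4 (7.02%), against 16.7% and 1.1%. The families within lists, here and in the rest of the text, were written after the descriptions and some values had been seen.

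Beta-amylases of glycoside hydrolase family 14 release maltose from starch. The member with the smallest p, Nitab4.5_0001255g0020, held 84.9, 41.3 and 66.7 in K326 and 13.0, 11.4 and 14.5 in the knockout, and 196, 199 and 188 in KY. Every knockout library was below every K326 library, with means of 64.3 ± 21.9 and 13.0 ± 1.52 (SD, n = 3 each). The log2 change was -2.17 (SE 0.33), and with a limma adjusted p of 0.107 it did not pass; on the values as deposited the change was -1.92 and passed, with an adjusted p of 0.012.

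Other family 14 genes lay on both sides. Nitab4.5_0007348g0010 held 11.3, 2.09 and 3.33 against 0.690, 0.689 and 0.745, with no overlap (log2 change -1.68, limma adjusted p = 0.361). Named after their values were seen, Nitab4.5_0000784g0030 held 21.2, 13.6 and 20.4 against 8.60, 8.97 and 7.23, and Nitab4.5_0002949g0030 held 2.95, 5.24 and 6.80 against 8.25, 7.44 and 9.15, higher in the knockout. The family had 5 genes higher and 5 lower among 18 (27.8% each), against 7.91% and 6.09% of all genes, with a median of 0.025. Nitab4.5_0001255g0020 and Nitab4.5_0007348g0010 were chosen by size and lack of overlap and are counted among the 5 lower. The sum of the family was 224, 168 and 224 in K326 and 120, 127 and 132 in the knockout, a ratio of means of 0.617. Both Nitab4.5_0001255g0020 and Nitab4.5_0000784g0030 contributed to that fall.

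Starch phosphorylases, which take glucose from the chain ends as glucose 1-phosphate, stood on the other side. Of 7 genes tested 5 were higher without overlap (71.4%) and 0 lower, on the scaled values, as deposited and after quantile normalization. Over all genes 7.91% were higher on the scaled values and 16.7% as deposited. The median log2 change of the starch phosphorylases was 0.45. Their sum was 133, 120 and 107 in K326 and 165, 152 and 215 in the knockout, with no overlap. Nitab4.5_0000154g0300 held 61.3, 45.5 and 36.0 against 72.9, 65.8 and 104 (log2 change 0.76, limma adjusted p = 0.721), and Nitab4.5_0008253g0030 held 4.64, 6.18 and 5.55 against 8.68, 7.87 and 12.2 (0.70, adjusted p = 0.512 by limma). Neither passed the test, and both were named after their values were seen. An invertase of glycosyl hydrolase family 100, Nitab4.5_0003838g0090, which splits sucrose, held 24.0, 17.5 and 13.1 against 7.56, 4.99 and 5.06, with no overlap (-1.46, SE 0.21, limma adjusted p = 0.106).

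**Figure D3:**
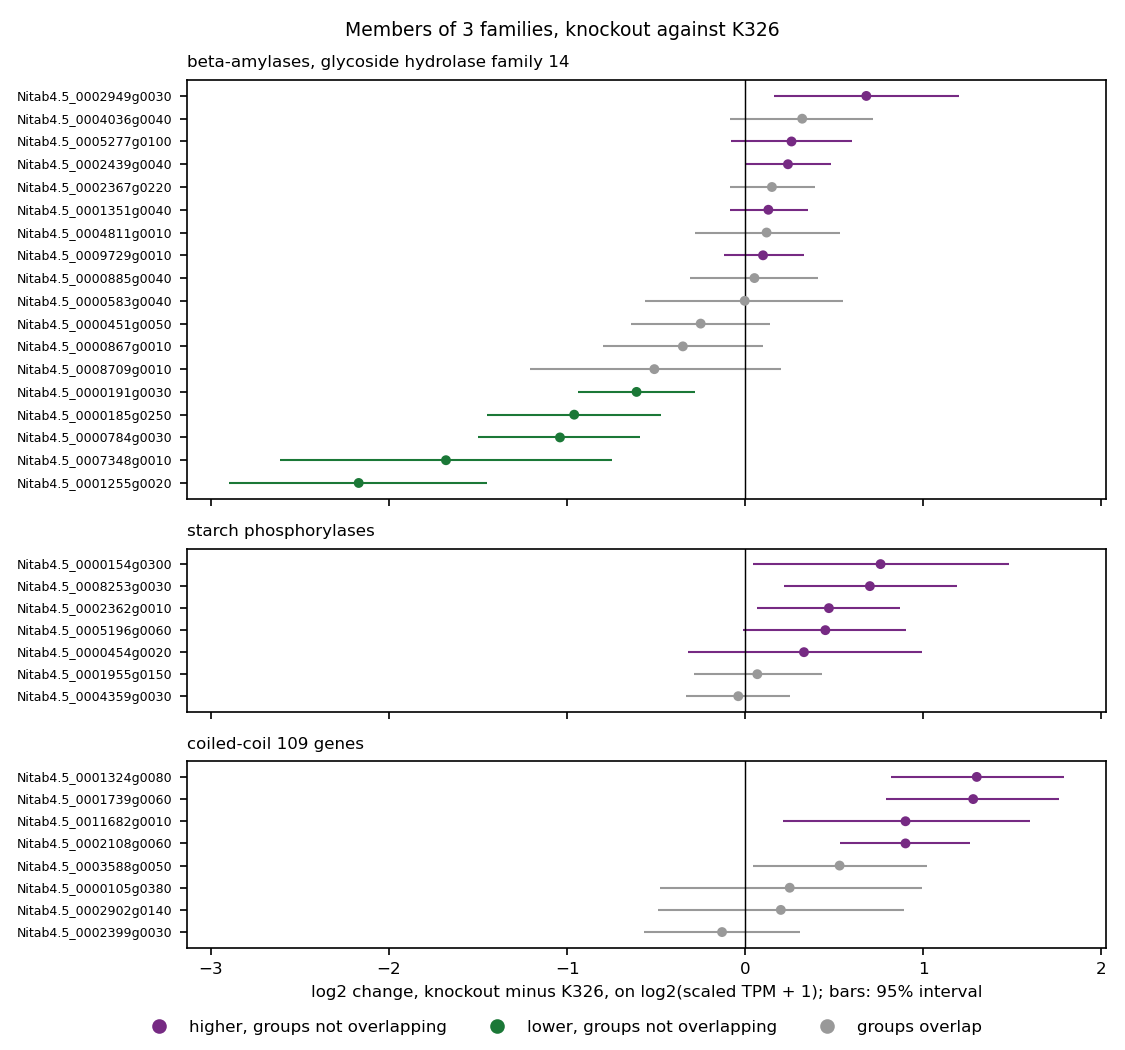
Log2 change, knockout minus K326, on the log2(scaled TPM + 1) scale (x axis) with 95% limma intervals for the tested members of the beta-amylase, starch phosphorylase and coiled-coil calcium uniporter families, the last of them described further on; purple and green points mark genes whose groups did not overlap. Starch phosphorylase genes with no overlap lie above 0, and beta-amylase genes lie on both sides.

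Genes with the triose phosphate transporter domain or a phosphate/phosphoenolpyruvate translocator name were listed as sugar-phosphate carriers of the plastid envelope. Whether each member acts in the plastid was not checked. The list also had more members free of overlap on the high side: 15 of 73 (20.5%) against 3 low (4.11%). As deposited it had 30 (40.5%) against 0. Over all genes the shares were 7.91% and 6.09%, and 16.7% and 1.1% as deposited. Leading the list was Nitab4.5_0001884g0050, a triose phosphate transporter domain gene, at 6.97, 9.36 and 8.95 in K326 and 27.5, 28.7 and 31.6 in the knockout. The groups were far apart, with means of 8.43 ± 1.28 and 29.2 ± 2.11 (SD, n = 3 each), a log2 change of 1.69 (SE 0.24, limma adjusted p = 0.106). KY held 3.69 to 4.57 and the overexpression line 1.76 to 5.00, so the knockout was the highest of the 4 groups. As deposited, and in the fit of the 6 libraries alone, this gene passed, with a log2 change of 1.97 as deposited. The sum over the list overlapped, at 618, 636 and 679 against 736, 656 and 728. The 11 tested genes described as triose phosphate/phosphoenolpyruvate translocators had 4 higher (36.4%) and 0 lower, with a median of 0.036.

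SWEET transporters move sugars across membranes without an energy source. Of 33 genes 5 were higher (15.2%) and 3 lower (9.09%), against 7.91% and 6.09% of all genes. Nitab4.5_0000445g0170 held 2.29, 1.46 and 2.71 in K326 and 0.643, 0.822 and 0.720 in the knockout (log2 change -0.85, limma adjusted p = 0.273). Its groups did not overlap.

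The list of cytokinin metabolism and two-component signalling had 8 of 84 genes higher and 8 lower (9.52% each), near the 7.91% and 6.09% of all genes, and none passed the test. Its families are small, and differences between them were not tested. LOG enzymes, which release the active base from its nucleotide, had 0 higher and 3 lower (25%) of 12. Their median was -0.17, or -0.14 from the median of all genes as deposited. The LOG gene with the smallest p, Nitab4.5_0000602g0060, held 13.0, 11.6 and 12.3 in K326 and 8.65, 5.23 and 7.01 in the knockout, with no overlap (log2 change -0.76, limma adjusted p = 0.270). Summed over the 19 matched genes, LOG held 224, 214 and 236 against 201, 171 and 201, and these sums did not overlap.

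Cytokinin dehydrogenases, which degrade the hormone, had 1 of 7 lower (14.3%), against 6.09% of all genes. That gene, Nitab4.5_0000446g0210, named after its values were seen, held 7.09, 5.94 and 8.69 against 4.28, 3.76 and 2.88 (log2 change -0.83, limma adjusted p = 0.380). tRNA isopentenyltransferases modify tRNA and are the source of cis-zeatin in Arabidopsis. Of 6 genes 3 were higher (50%) and 0 lower, against 7.91% and 6.09% of all genes. Their sums were 14, 15.3 and 14.6 against 17.6, 16.8 and 17.0. After quantile normalization 1 of these genes stayed free of overlap. Response regulators include the factors that carry the signal to genes in the nucleus. Of 49 tested 5 were higher (10.2%) and 4 lower (8.16%), near the shares of all genes. The Hpt phosphotransfer proteins upstream of them had 0 of 8 in either direction.

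**Figure D4:**
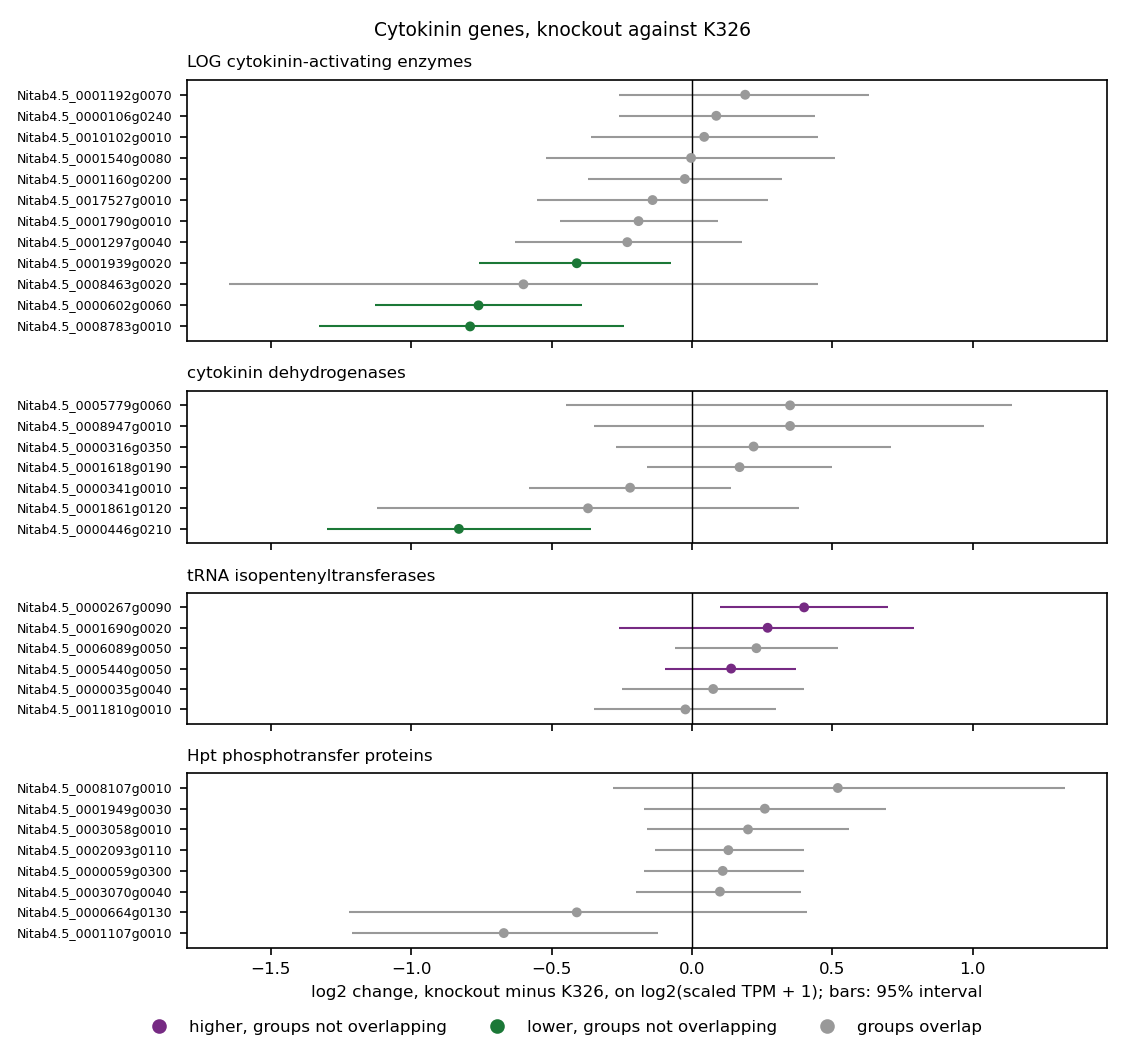
Log2 change, knockout minus K326, on the log2(scaled TPM + 1) scale (x axis) with 95% limma intervals for tested members of 4 cytokinin families; purple and green points mark genes whose groups did not overlap. LOG genes with no overlap lie below 0 and tRNA isopentenyltransferase genes with no overlap above 0.

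UDP-glycosyltransferases are the family to which zeatin O-glucosyltransferases belong. Of 340 genes with that domain, 121 were tested and 82 were listed at 0 in all 6 libraries. Of those tested 5 were higher (4.13%) and 8 lower (6.61%) without overlap, against 7.91% and 6.09% of all genes. Over all 340 the sum was 1049, 1100 and 1084 in K326 and 1063, 953 and 1028 in the knockout. Nitab4.5_0000132g0530 held 13.0, 23.5 and 21.1 against 10.0, 11.0 and 4.60, with no overlap (log2 change -1.12, limma adjusted p = 0.466). Which of them, if any, is NtCISZOG was not tested.

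Among other hormone genes, the auxin efflux carrier Nitab4.5_0001629g0060, of a family that moves auxin out of cells, held 15.2, 18.6 and 17.3 against 24.9, 38.7 and 32.3 (log2 change 0.85, limma adjusted p = 0.291). The Tify gene Nitab4.5_0006232g0010, of the family that holds the repressors of jasmonate signalling, held 21.2, 27.4 and 22.3 against 19.7, 13.5 and 13.4 (-0.59). Both had no overlap. The auxin list had 13 of 164 higher (7.93%) and 7 lower (4.27%), near or below the 7.91% and 6.09% of all genes. The jasmonate list had 1 of 40 higher (2.5%) and 4 lower (10%).

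Heat shock genes had 25 of 202 higher (12.4%) and 7 lower (3.47%), against 7.91% and 6.09% of all genes. As deposited the split was 57 (27.7%) and 0, against 16.7% and 1.1%. The heat stress factor gene Nitab4.5_0006852g0070, of the factors that switch on these chaperones, held 2.91, 3.18 and 3.32 in K326 and 7.32, 9.04 and 7.26 in the knockout (log2 change 1.10, SE 0.16, limma adjusted p = 0.106). The groups were well apart. The small chaperones of the Hsp20 class summed to 1939, 1639 and 1998 against 2235, 2565 and 2309. Of 54 genes 9 were higher (16.7%) and 3 lower (5.56%). The Hsp20 gene Nitab4.5_0002443g0040, named after its values were seen, held 273, 152 and 204 against 351, 367 and 361 (0.81, limma adjusted p = 0.826).

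Among defence genes, the list of chitinases, PR proteins and proteinase inhibitors had 4 of 166 genes higher (2.41%) and 23 lower (13.9%). Over all genes the shares were 7.91% and 6.09%. As deposited the split was 22 (13.4%) and 7 (4.27%), against 16.7% and 1.1% of all genes. Its median was -0.11 scaled, and -0.18 from the median of all genes as deposited. The chitinase gene Nitab4.5_0000416g0240, of enzymes that cut fungal cell walls, held 5.09, 1.96 and 4.84 against 0.745, 1.21 and 1.47 (log2 change -1.15, limma adjusted p = 0.424). Chitinases alone had 1 higher (3.7%) and 6 lower (22.2%) of 27, with a median of -0.33, or -0.41 from the median of all genes as deposited. Bet v I and thaumatin proteins summed to 666, 447 and 733 against 402, 352 and 410, with no overlap.

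Immune receptors were mixed. The NB-ARC gene Nitab4.5_0006564g0060 held 15.3, 10.3 and 8.71 against 6.57, 3.01 and 1.78, and Nitab4.5_0007061g0030 held 1.46, 1.35 and 0.752 against 3.10, 2.58 and 3.64. The list had 9 of 143 higher (6.29%) and 4 lower (2.8%), against 7.91% and 6.09% of all genes. The wound-induced Wun1 gene Nitab4.5_0009875g0010 held 16.7, 18 and 29.8 against 11.3, 12.5 and 1.85 (log2 change -1.48, limma adjusted p = 0.605).

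Ribosomal protein genes had 21 of 868 higher (2.42%) and 82 lower (9.45%), against 7.91% and 6.09% of all genes. As deposited the split was 52 (6%) and 1 (0.115%), against 16.7% and 1.1%. The median of the ribosomal genes was -0.16, or -0.13 from that of all genes as deposited. Their sum was 30588, 25701 and 25705 in K326 and 23389, 22059 and 25678 in the knockout, and the highest knockout library lay just below the lowest K326 library. Without that library 318 genes were lower (36.6%, against 10.3% of all genes in those libraries), and without the third K326 library 276 (31.8%, against 9.95%). The member with the smallest p, the mitochondrial L27/L41 gene Nitab4.5_0003599g0030, lay the other way, at 0.693, 0.887 and 1.46 against 1.56, 3.29 and 3.78 (log2 change 0.91, limma adjusted p = 0.376).

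Marker genes of the cell types a leaf holds were compared as well, since in bulk RNA fewer cells of a type and less RNA per cell cannot be told apart. The mesophyll lists are the light-harvesting and photosystem lists given above. Phloem protein and sieve element genes summed to 421, 394 and 368 in K326 and 498, 469 and 602 in the knockout, with no overlap. Of 38 tested 4 were higher (10.5%) and 5 lower (13.2%), against 7.91% and 6.09% of all genes. Lipid transfer proteins, many of them made in the epidermis, summed to 2394, 1896 and 1954 against 1641, 1217 and 1834. Of 68 tested 4 were higher (5.88%) and 11 lower (16.2%). As deposited the split was 7 (10.3%) and 2 (2.94%), against 16.7% and 1.1% of all genes. The lipid transfer sums did not overlap. Histones summed to 2319, 2052 and 2324 against 1988, 1988 and 2027, also with no overlap. Yet of 141 histone genes tested 10 were higher (7.09%) and 12 lower (8.51%), near the shares of all genes. After quantile normalization 12 were higher and 3 lower. The cyclin list summed to 590, 504 and 544 against 547, 503 and 544. Of its 83 tested genes 5 were higher and 5 lower (6.02% each). The part of these cell types in the results above was not tested.

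Single members of these lists were apart. The phloem F-box gene Nitab4.5_0004550g0110 held 5.62, 2.80 and 5.03 against 1.82, 1.27 and 1.20 (log2 change -1.14, limma adjusted p = 0.409). The lipid transfer gene Nitab4.5_0004080g0010 held 25.5, 29.0 and 26.3 against 18.9, 17.1 and 16.6 (-0.59, limma adjusted p = 0.234). The CDK inhibitor gene Nitab4.5_0002428g0040, which restrains cell division, held 3.44, 5.03 and 3.87 against 1.76, 1.64 and 2.02 (-0.86, limma adjusted p = 0.193). None of these passed the test.

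Aquaporins, the water channels of membranes, had 3 of 55 higher (5.45%) and 10 lower (18.2%), against 7.91% and 6.09% of all genes. As deposited the split was 4 (7.27%) and 2 (3.64%), against 16.7% and 1.1%. The sums of the list were 1429, 1231 and 1483 against 1310, 1041 and 1022. Nitab4.5_0001778g0110 held 4.83, 4.98 and 5.40 against 3.09, 2.94 and 2.47 (log2 change -0.67, limma adjusted p = 0.145). Expansins, xyloglucan enzymes and cellulose synthases build and loosen the cell wall. Their list had 4 of 82 higher (4.88%) and 2 lower (2.44%), shares below those of all genes, and a median of -0.017. Its member with the smallest p, Nitab4.5_0000926g0150, held 65.9, 49.9 and 67.1 against 25.7, 27.2 and 15.8 (-1.40, limma adjusted p = 0.284). Phenylalanine ammonia-lyase, the entry to phenylpropanoids, gave 12.7, 8.70 and 7.44 against 5.35, 3.95 and 6.10 for Nitab4.5_0000071g0170 (-0.78). In each of these genes the groups did not overlap.

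The largest changes by size outside these lists were scattered over functions. On the high side, the cold acclimation gene Nitab4.5_0010964g0070 held 29.6, 2.79 and 2.25 in K326 and 30.3, 41.0 and 36.3 in the knockout. Its first K326 library lay close to the knockout, and the log2 change of 2.34 did not pass (limma adjusted p = 0.409). This gene passed only without that library (limma adjusted p = 2.62e-05), which is the one that disagreed. In every other alternative the limma adjusted p was 0.327 to 0.845. The phospholipase gene Nitab4.5_0000151g0120 held 4.08, 0.612 and 1.69 against 5.81, 12.4 and 13.8 (1.98). The inositol oxygenase gene Nitab4.5_0000300g0140 held 0.736, 2.58 and 1.92 against 2.98, 7.74 and 5.41 (1.21), and the calmodulin-binding BAG gene Nitab4.5_0003251g0040 held 5.19, 8.26 and 8.81 against 18.6, 18.5 and 17.9 (1.23).

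Genes with the coiled-coil domain of the mitochondrial calcium uniporter, the channel that lets calcium into mitochondria, were in part higher in the knockout. Of 8 tested genes 4 were higher (50%) and 0 lower, and as deposited 6 (75%) and 0. Over all genes 7.91% were higher, and 16.7% as deposited. The sum of the family was 49.0, 45.2 and 39.5 against 72.8, 69.9 and 107, with no overlap. This family was also written after the descriptions and some values had been seen. The members named next were chosen by size and lack of overlap and are counted among the higher genes. The shares thus rest in part on that choice. Neither of these members passed the test. Nitab4.5_0001324g0080 held 12.2, 8.29 and 7.53 against 19.7, 22.8 and 31 (log2 change 1.30, limma adjusted p = 0.148), and Nitab4.5_0001739g0060 held 6.34, 6.70 and 5.24 against 12.6, 13.9 and 23.6 (1.28, adjusted p = 0.149 by limma).

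On the low side, the DnaJ gene Nitab4.5_0000697g0070 held 57.8, 29.7 and 70.7 against 13.9, 28.6 and 2.77 (log2 change -2.10), and the second knockout library stood near the K326 minimum. The carboxyl methyltransferase gene Nitab4.5_0003904g0010, of a family that methylates salicylate and jasmonate, held 4.44, 18.4 and 14.4 against 1.99, 1.84 and 2.57 (-1.91). The F-box gene Nitab4.5_0001079g0100 held 7.41, 9.79 and 20.2 against 3.06, 4.31 and 1.79 (-1.66), and the pentatricopeptide repeat gene Nitab4.5_0000052g0100, of a family that binds organelle RNA, held 21.2, 18.4 and 26.7 against 9.93, 8.60 and 4.84 (-1.43). None passed the test.

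Transcription factor families had members on both sides. The AP2/ERF list had 9 of 166 higher (5.42%) and 20 lower (12%), against 7.91% and 6.09% of all genes. As deposited the split was 18 (10.8%) and 4 (2.4%), against 16.7% and 1.1%. Nitab4.5_0004246g0040, with RWP-RK and AP2 domains, held 22.5, 22.2 and 18.9 in K326 and 7.73, 7.79 and 6.44 in the knockout (log2 change -1.42, SE 0.21, limma adjusted p = 0.107), with groups far apart. Of the B-box genes, several of which act in light signalling in Arabidopsis, Nitab4.5_0001680g0030 held 12.5, 32.5 and 28.7 against 96.8, 59.7 and 49.2 (1.49) and Nitab4.5_0005620g0060 held 11.4, 13.5 and 11.0 against 24.9, 30.9 and 33.2 (1.24). The family as a whole had 5 of 34 higher (14.7%) and 7 lower (20.6%), against 7.91% and 6.09% of all genes. This family was also written after some values had been seen. Both genes above were chosen by size and lack of overlap and are counted among the 5 higher.

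Of the clock and CCT list 5 of 56 were higher (8.93%) and 8 lower (14.3%), against 7.91% and 6.09% of all genes. The CCT gene Nitab4.5_0001520g0010 held 29.0, 20.7 and 23.9 against 36.4, 45.2 and 35.8 (log2 change 0.66). The Myb gene Nitab4.5_0002728g0020 held 3.79, 2.02 and 0.948 against 5.99, 5.30 and 8.40 (1.29), and the WRKY gene Nitab4.5_0007375g0020 held 4.44, 2.13 and 1.25 against 0.298, 1.08 and 0.290 (-1.15). The NAC gene Nitab4.5_0000115g0100 held 2.13, 2.43 and 1.75 against 3.11, 3.56 and 3.87 (0.54), and the NF-YB gene Nitab4.5_0006508g0040, matched to the histone list by its histone-fold domain, held 10.0, 7.44 and 17.2 against 6.01, 3.75 and 3.16 (-1.20). Each of these genes was free of overlap, and none passed the test. In the remaining lists the members with the smallest p were Nitab4.5_0008037g0060 for nitrate (log2 change -0.46), Nitab4.5_0000915g0070 for late embryogenesis abundant proteins (-0.53), Nitab4.5_0001259g0110 for GATA factors (0.28) and Nitab4.5_0010210g0010 for papain-type proteases (-0.32).

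**Figure D5:**
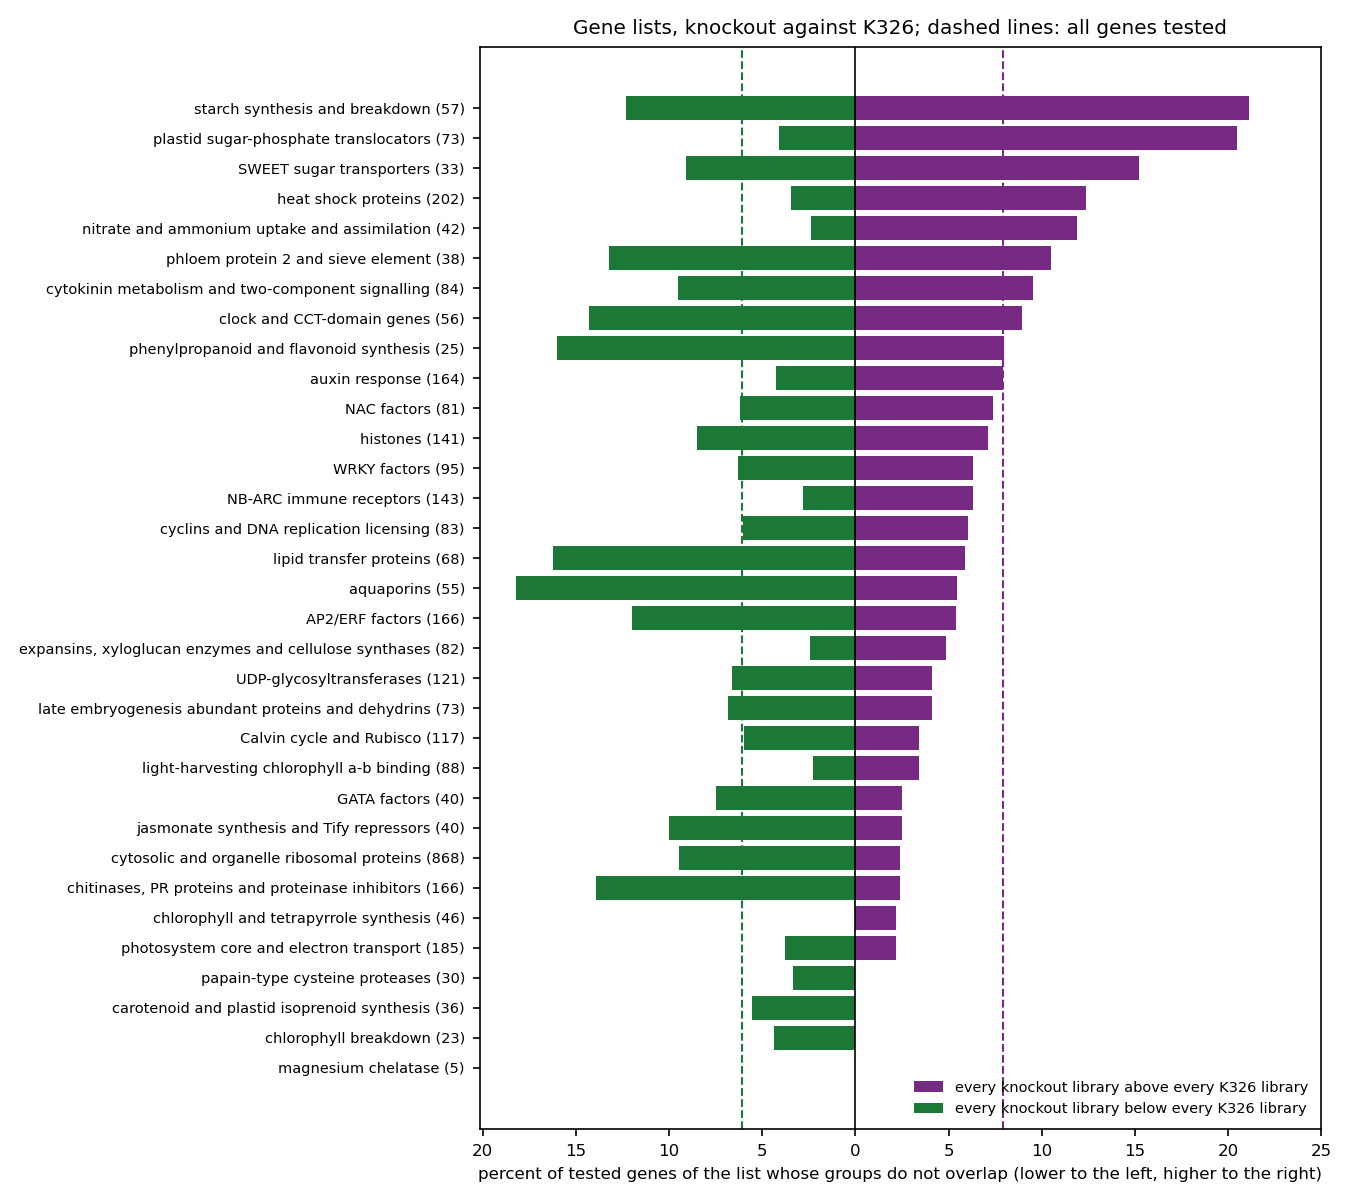
Share of tested genes in each of the gene lists (x axis, percent, lower to the left and higher to the right) whose 3 knockout libraries all lay above (purple) or all below (green) the 3 K326 libraries, with dashed lines at the shares over all tested genes, 7.91% and 6.09%. The starch and sugar-phosphate lists extend furthest beyond the line on the high side, and the aquaporin and lipid transfer lists on the low side.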

How the data were processed

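Leaf RNA libraries of 4 groups with 3 replicates each were read from 1 deposited table of 69500 genes. Its values were taken as TPM, the unit that the tools named per the submitters' processing notes, Salmon and StringTie, give; the header names no unit, and FPKM would fit the values too. Versions, settings and genome build are not given in the sources used here. Gene IDs carry the prefix Nitab4.5. None of the IDs (0) matched the RefSeq table, so no coordinates or sequences are given. Gene descriptions are domain names in the deposited table, and 19827 genes are Unknown.

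Scaling factors were median ratios to the average profile, taken over the 20130 genes that reached 1 in each of the 12 libraries. Genes reaching 1 scaled TPM in 3 or more libraries were tested, and log2(scaled TPM + 1) was fitted with limma 3.58.1 (R 4.3.3), with 1 mean for each of the 4 groups, the trend and robust options on, and adjustment by Benjamini-Hochberg at 0.05. Fold changes on this scale understate those of low genes. The script was tested on simulated data. ChlH was tested with an exact permutation test. The genes named are the chelatase genes, the called genes, the 10 highest and 10 lowest with no overlap, a mean of 5 or more and an informative description, and the member of each list with the smallest p; others are marked. The libraries, the members of the lists and the rule were chosen with earlier results of these data known. Alternatives were the values as deposited, quantile normalization, no filter, a stricter filter (mean of 5 or more), a smaller pseudocount (0.1), the 6 libraries alone, the robust setting off, the replicate block, each library left out and, chosen after seeing the data, factors centred on 1. Python 3.11.15 was used with scipy 1.17.1, numpy 2.4.6, pandas 2.3.3 and, for plots, matplotlib 3.10.9.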

Additional observations from a re-analysis of the deposited data

How the results depend on the processing

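The count of 4 called genes was 0 with quantile normalization, a pseudocount of 0.1, the replicate block and factors centred on 1. It was 0 to 8 with each library left out: 8 without the first K326 library, of which 2 were among the 4, and 0 without any of the other 5. As deposited it was 6, of which 1 was among the 4, and in the 6 libraries alone it was 3, of which 0 were. Deviations of same-numbered libraries correlated at 0.08, 0.34 and -0.08, and those of K326 and knockout libraries with unlike numbers at -0.25 to 0.20. Whether the numbers pair the samples cannot be told from so few values. With the numbers as pairs, the ChlH difference of -16.6 had a two-sided exact permutation p of 0.500, where 0.25 is the smallest 3 pairs can give. The ChlH difference was 4.85 as deposited, and -42.1 to 6.28 with each library left out. Genes free of overlap numbered 5233 higher and 345 lower as deposited, and 822 and 1164 with a mean of at least 5. With 1 library left out they ranged from 3582 to 5152 and from 3090 to 3859, since fewer libraries overlap less. As deposited, the log2 changes of the chelatase genes Nitab4.5_0000733g0210, Nitab4.5_0006237g0030 and Nitab4.5_0010636g0020 turned to 0.20, 0.10 and 0.0087, on a scale where the median of all genes was 0.24. With each library left out, that of Nitab4.5_0000733g0210 ranged from -0.22 to 0.045, above 0 without K326 replicate 3 (0.035), knockout replicate 2 (0.045) or knockout replicate 3 (0.019). That of Nitab4.5_0001663g0090 ranged from -0.14 to 0.14, below 0 without the second K326 (-0.084) or first knockout library (-0.14). Those of Nitab4.5_0006237g0030 and Nitab4.5_0010636g0020 ranged from -0.37 to 0.039 and from -0.62 to 0.11, above 0 without the second knockout library. For the 58 named genes, 791 of 855 alternatives kept the direction and the side of the threshold, 48 lost a call, 6 gained one and 10 turned in sign. All 48 lost calls fell on the 4 called genes, since only a called gene can lose a call. Each of these 4 lost its call in most alternatives, and the other named genes kept their side by staying uncalled. For the 33 list medians, 451 of 495 kept within the spread and 44 moved. The cause of these shifts was not tested. Depth is unknown, which limits what can be said of low genes.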

Other observations

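The largest log2 change of all tested genes lay in a Rubisco small subunit gene, Nitab4.5_0002207g0050, which scattered within groups. It held 0, 2410 and 9.98 scaled TPM in K326 and 5355, 2069 and 145 in the knockout (log2 change 5.30, SE 2.47, limma adjusted p = 0.747). KY held 2045, 106 and 33.5, and the overexpression line 3.00, 1.24 and 0, so libraries of 1 group differed as much as groups did. It enters the Calvin cycle and Rubisco list given above.

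The following genes with little scatter lay outside the naming rule and were chosen after their values were seen. The dynein light chain gene Nitab4.5_0000297g0140, of a protein that serves as a dimerising hub in many complexes, held 57.5, 41.8 and 61.2 in K326 and 27.6, 18.7 and 20.6 in the knockout (log2 change -1.23, limma adjusted p = 0.106). A second gene with RWP-RK and AP2 domains, Nitab4.5_0000818g0040, held 11.7, 11.9 and 12.1 against 5.71, 5.71 and 5.56 (-0.95, limma adjusted p = 0.208), below K326 like the first one. The groups did not overlap in either gene, and neither passed the test.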
